A study of Homo sapiens with 12 samples.

Results

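PRL, GTSF1, TNFSF4, ASS1, EFEMP1 and NRN1 are the 6 genes whose RNA showed the largest excess in the leukaemia line RS4:11 over the leukaemia line SEM-K2 when both had received vehicle, out of 19775 genes named by the array's annotation. They were taken by symbol, with all 8 of their probe sets. A probe set is a group of short oligonucleotides on the array that reads 1 transcript or a few. The values of the 4 vehicle arrays chose these genes, so their vehicle levels are given as a description, without a test. All 6 passed the filter used for testing, a log2 value above 4 on at least 2 arrays, and 7 of the 8 probe sets did. Each of them passed through RS4:11 alone.

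RS4:11 and SEM-K2 are established cell lines of human acute lymphoblastic leukaemia that carry the same kind of gene fusion, MLL-AF4 (KMT2A-AFF1), per the labels. Each line was kept for 6 h with vehicle, with obatoclax at its EC50, the dose that gives a midpoint effect, taken from a 72 h assay, or with obatoclax at 3 times that concentration, called 3xEC50 here. The concentrations themselves are not given in the sources used here. Obatoclax is a small molecule made to block the antiapoptotic proteins of the BCL2 family. The 6 groups, RS4:11 vehicle, RS4:11 EC50, RS4:11 3xEC50, SEM-K2 vehicle, SEM-K2 EC50 and SEM-K2 3xEC50, each had 2 replicates, 12 Affymetrix U133 Plus 2 arrays in all. Whether the 2 replicates were grown separately is not stated, so the spread behind each p-value may be partly technical. A difference between RS4:11 and SEM-K2 is a difference between 1 line and 1 other line.

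The 6 genes have separate jobs. PRL encodes prolactin, the pituitary hormone of lactation, which acts through the receptor PRLR, the kinase JAK2 and STAT5. Lymphoid and decidual cells can also make it, from a promoter upstream of the pituitary one. GTSF1 encodes a small zinc finger protein of germ cells that works with PIWI proteins in the piRNA pathway, which silences retrotransposons, as shown in mice. TNFSF4 encodes OX40 ligand, a costimulatory protein that B cells and other antigen-presenting cells show to T cells bearing the receptor TNFRSF4. ASS1 encodes argininosuccinate synthase, which joins citrulline and aspartate on the way to arginine. Leukaemia cells without it depend on arginine from outside. EFEMP1 encodes fibulin-3, a secreted protein of the extracellular matrix, and NRN1 encodes neuritin, a GPI-anchored protein first known from neurons.

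Promoter sequences were looked at because all 6 genes showed the same high and low pattern. RefSeq promoter windows on GRCh38.p14, running from 250 bases before to 50 bases after a gene's start, were at hand for 5 of the 6 genes, with 2 windows for ASS1. EFEMP1 had none in the table. The windows differed widely in base composition. The PRL window (chr6:22296987-22297286, minus strand) had a GC content of 36.33%, lower than all but 5.69% of 35116 human windows, and held 4 CG dinucleotides. The NRN1 window (chr6:6003976-6004275, minus strand) held 28 CG dinucleotides at an observed over expected ratio of 1.206, above that of 99.5% of windows, with a GC content of 55.67%. The upstream ASS1 window (chr9:130444457-130444756, plus strand) had a GC content of 71.67% and 29 CG dinucleotides, at a ratio of 0.759. These 3 are shown because they had the fewest CG dinucleotides, the highest ratio and, among first windows, the highest GC content. Each CG dinucleotide is in capitals.
PRL: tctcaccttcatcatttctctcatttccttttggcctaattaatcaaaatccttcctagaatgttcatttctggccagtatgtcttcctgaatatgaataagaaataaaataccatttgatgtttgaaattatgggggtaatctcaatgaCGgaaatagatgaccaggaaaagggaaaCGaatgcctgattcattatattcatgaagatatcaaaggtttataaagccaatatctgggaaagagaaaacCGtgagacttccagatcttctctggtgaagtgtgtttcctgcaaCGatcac
NRN1: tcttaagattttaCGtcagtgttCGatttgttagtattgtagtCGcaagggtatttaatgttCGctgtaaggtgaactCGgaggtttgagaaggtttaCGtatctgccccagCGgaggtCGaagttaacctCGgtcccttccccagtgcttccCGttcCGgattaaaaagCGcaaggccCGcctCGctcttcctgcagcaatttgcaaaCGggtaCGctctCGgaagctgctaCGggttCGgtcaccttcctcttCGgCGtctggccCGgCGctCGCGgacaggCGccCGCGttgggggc
ASS1: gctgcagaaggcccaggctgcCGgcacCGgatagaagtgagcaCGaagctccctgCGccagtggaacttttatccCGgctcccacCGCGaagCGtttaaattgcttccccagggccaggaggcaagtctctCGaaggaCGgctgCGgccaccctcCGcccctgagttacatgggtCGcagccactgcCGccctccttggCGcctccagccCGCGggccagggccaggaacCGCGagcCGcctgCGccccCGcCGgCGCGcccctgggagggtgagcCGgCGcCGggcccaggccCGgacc

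The GTSF1 window (chr12:54473553-54473852, minus strand) had a GC content of 62% and a ratio of 0.349, and the TNFSF4 window (chr1:173205483-173205782, minus strand) 48.33% and 0.347. The downstream ASS1 window (chr9:130444711-130445010, plus strand) had 78.33% and 0.633. Over all windows the median GC content was 58.67% and the median ratio 0.579. The motif TATAAA, searched on both strands, occurred in the PRL window, beginning 31 bases before the start, with an overlapping match on the other strand, and in no window of the other 4 genes. It occurred in 11.5% of all windows. ATGNATA, the core of the sites bound by the pituitary factor POU1F1, also searched on both strands, began at 157 and at 54 bases before the PRL start and was in 7.1% of all windows. A match is a run of letters and not a shown site, and the array does not tell from which start PRL RNA was made.

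The arrays agreed closely as a whole. Replicates of a group correlated at 0.977 to 0.991 over the 10561 genes tested. SEM-K2 3xEC50 replicate 2 stood apart in RNA quality: its ACTB control read higher at the 3′ end than at the 5′ end by 1.97 (log2), against 0.87 to 1.23 on the other 11 arrays. RS4:11 vehicle replicate 1 had an 18S ribosomal RNA signal of 9.85, against at most 6.98 elsewhere. The results of the 6 genes that use either array are also given without it. A log2 value under 4 is read here as not above the floor of the measurement. A fold against a group under the floor is counted from 4 and written as "at least". A log2 difference of such a gene is given as fitted and is no measure of size.

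PRL was the gene with the largest excess. It read 12.68 and 12.71 with vehicle, 12.55 and 12.66 at EC50 and 12.56 and 12.77 at 3xEC50 in RS4:11 (log2, probe set 205445_at). In SEM-K2 it read 2.21 and 2.99 with vehicle, 2.45 and 2.32 at EC50 and 2.27 and 3.55 at 3xEC50. The lines did not overlap, and no SEM-K2 array rose above the floor. The highest SEM-K2 value came from 3xEC50 replicate 2, the array that stood apart in RNA quality, and its partner read 2.27. With vehicle the excess was 10.10 on the log2 scale, at least 415-fold from the floor.

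GTSF1 read 11.70 and 11.46 with vehicle, 11.49 and 11.65 at EC50 and 11.82 on both arrays at 3xEC50 in RS4:11 (probe set 227711_at). In SEM-K2 its 6 arrays lay between 2.09 and 2.25, far from the RS4:11 values. Its excess with vehicle was 9.44, at least 191.5-fold.

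TNFSF4 read 10.50 and 10.22 with vehicle, 10.39 and 10.33 at EC50 and 10.31 and 10.58 at 3xEC50 in RS4:11 (probe set 207426_s_at). SEM-K2 arrays lay between 2.43 and 2.86. The ranges of treated and vehicle arrays in RS4:11 overlapped, with the lowest value at vehicle replicate 2. The excess with vehicle was 7.57, at least 82.1-fold.

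ASS1 read 10.62 and 9.52 with vehicle, 10.09 and 9.28 at EC50 and 10.06 and 9.41 at 3xEC50 in RS4:11 (probe set 207076_s_at). SEM-K2 arrays lay between 2.35 and 3.18. ASS1 has many processed pseudogenes, and the suffix _s_at marks a probe set that can match several transcripts, as it also does for TNFSF4 and EFEMP1, so a share of signal from related sequences cannot be told apart. The ASS1 excess with vehicle was 7.56, at least 67.2-fold. ASS1 was the gene of the 6 with the widest spread in RS4:11, and the spread went with the replicate number: replicate 1 was above replicate 2 by 1.09 with vehicle, 0.81 at EC50 and 0.66 at 3xEC50. The highest value, 10.62, came from the vehicle array with the high 18S signal. The part of that array in the ASS1 value was not tested.

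EFEMP1 had 3 probe sets. The brightest, 201842_s_at, read 9.88 and 9.99 with vehicle, 9.83 on both arrays at EC50 and 9.72 and 9.62 at 3xEC50 in RS4:11, against 2.36 to 2.51 in SEM-K2. Its excess with vehicle was 7.49, at least 61.1-fold. The second, 201843_s_at, was also above the floor on every RS4:11 array and on no SEM-K2 array, but it was more scattered. It read 7.11 and 7.09 with vehicle, 7.51 and 5.94 at EC50 and 7.28 and 6.53 at 3xEC50 in RS4:11, against 2.50 to 2.71 in SEM-K2. The third, 228421_s_at, lay between 1.78 and 1.80 on all 12 arrays and so did not see the transcript in either line.

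NRN1 read 9.85 and 9.52 with vehicle, 9.84 and 9.76 at EC50 and 10.06 and 9.74 at 3xEC50 in RS4:11 (probe set 218625_at). SEM-K2 arrays lay between 2.19 and 2.80. Its excess with vehicle was 7.47, at least 51.5-fold. Replicate 1 was above replicate 2 in all 3 RS4:11 groups, by 0.09 to 0.34.

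**Figure D1:**
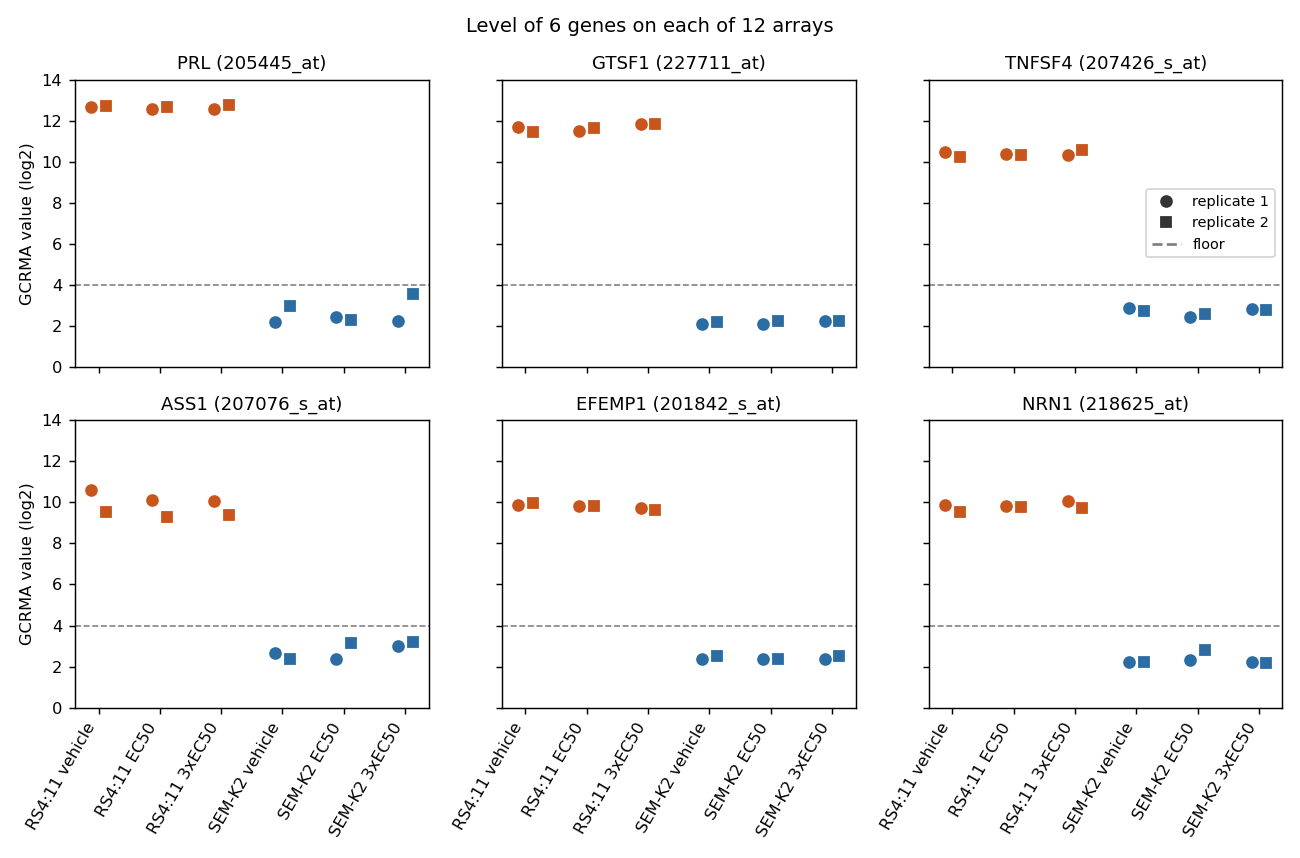
GCRMA values (log2, vertical axis) of the main probe set of each gene on all 12 arrays, by line and condition; circles are replicate 1, squares replicate 2, and the dashed line is the floor at 4. All RS4:11 points (orange) lie above 9 and all SEM-K2 points (blue) below 4, with the ASS1 circles above the ASS1 squares in RS4:11.

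These 6 genes held ranks 1 to 6 by excess with vehicle among 10561 genes, which is how they were chosen. Each gene was ranked by its brightest probe set, which for EFEMP1 leaves out its lower-reading probe sets. Without RS4:11 vehicle replicate 1 the excess was 10.11 for PRL, 9.32 for GTSF1, 7.42 for TNFSF4, 7.02 for ASS1, 7.54 for EFEMP1 and 7.30 for NRN1. The member just inside was NRN1 at 7.47. Just outside came CCN2, a matricellular growth factor gene, at 6.99, the B cell surface glycoprotein gene CD24 at 6.73 and the phospholipase gene PLCB1 at 6.70. The order depends on values below the floor. Counted from the floor, PRL and GTSF1 kept ranks 1 and 2, TNFSF4 ranked 5, ASS1 8, EFEMP1 9 and NRN1 10, and CCN2 ranked 3 and CD24 ranked 4, since both were above the floor in SEM-K2.

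The 8 obatoclax arrays took no part in choosing the genes, so the difference between the lines was tested there. They are arrays of the same 2 lines, so a large difference was built in as far as the lines keep their differences with the drug. All 6 genes passed the filter through RS4:11 alone, and the SE also takes in SEM-K2 values under the floor. The p-values are therefore no fresh evidence for the choice of these genes. The comparison asks whether the excess in RS4:11 was also present in cells given the drug. It was, for all 6 genes at both doses. PRL differed by 10.22 ± 0.37 (SE) at EC50 and by 9.75 ± 0.37 at 3xEC50 (adjusted p = 4.01e-06 and 4.95e-06). GTSF1 differed by 9.39 ± 0.14 and 9.59 ± 0.14 (adjusted p = 2.32e-07 and 2.01e-07). TNFSF4 differed by 7.84 ± 0.15 at EC50 and 7.64 ± 0.15 at 3xEC50, and EFEMP1 by 7.46 ± 0.13 and 7.24 ± 0.13. NRN1 differed by 7.24 ± 0.20 and 7.70 ± 0.20. As fitted, with SEM-K2 values under the floor, ASS1 had the smallest differences, 6.93 ± 0.37 (95% confidence interval 6.05 to 7.82) and 6.63 ± 0.37 (5.75 to 7.52), with the highest adjusted p-values of the 6, 2.41e-05 and 3.02e-05. These are limma tests on the 4 obatoclax groups with 2 arrays each, adjusted by Benjamini-Hochberg over 10469 genes. Without SEM-K2 3xEC50 replicate 2 all 6 were still called at 3xEC50, with differences between 6.72 for ASS1 and 10.39 for PRL and limma adjusted p-values between 9.56e-06 and 4.82e-04.

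Of those genes 9.19% were called higher in RS4:11 at EC50 and 9.24% at 3xEC50 (21% and 22% in either direction), while 6 of 6 members were higher. All 6 members were above the floor on all 4 RS4:11 obatoclax arrays and on none of the 4 SEM-K2 obatoclax arrays, a pattern shown by 1.22% of the genes, with 2.46% in the opposite sense. Members had been picked from the top of the same difference in untreated cells of the same lines, so a high count was built in as far as the lines keep their differences. Counted from the floor, the fold at EC50 and at 3xEC50 was at least 389.7 and 405 for PRL, 189.6 and 226.2 for GTSF1, 82.1 and 87.2 for TNFSF4, and between 50.9 and 59.6 for ASS1, EFEMP1 and NRN1. PRL and GTSF1 ranked 1 and 2 at both doses. ASS1 ranked 7 at EC50 and 13 at 3xEC50 by log2 difference, and the other 3 ranked between 3 and 7. These ranks depend on values below the floor. Counted from the floor, ASS1 ranked 13 at both doses, TNFSF4 6 and 4, EFEMP1 10 and 14 and NRN1 11 and 10. At 3xEC50 the lowest fold was that of EFEMP1 (at least 50.9, against 53.3 for ASS1). The second EFEMP1 probe set, in a fit of every probe set on its own, differed by 4.14 ± 0.50 and 4.39 ± 0.50 (limma adjusted p = 0.00305 and 0.00230).

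**Figure D2:**
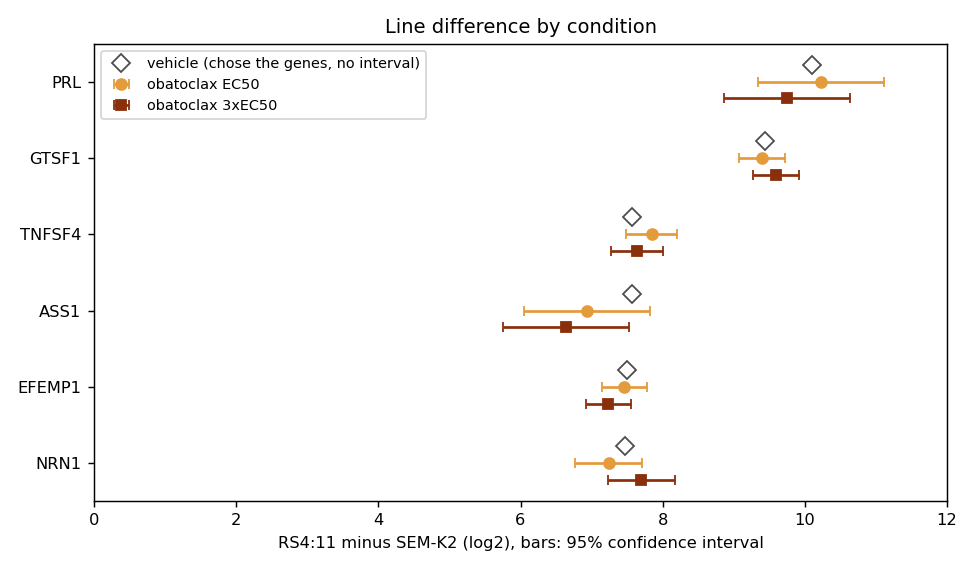
Difference between RS4:11 and SEM-K2 (log2, horizontal axis) for each gene, with vehicle (open diamonds, which chose the genes), at EC50 (circles) and at 3xEC50 (squares); bars are 95% confidence intervals from limma on the 8 obatoclax arrays. All 12 intervals lie above 5, PRL and GTSF1 lie farthest to the right, and both ASS1 estimates lie below its vehicle diamond.

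The next comparison asks whether obatoclax changed the 6 genes in RS4:11. None was called at EC50 or at 3xEC50 against vehicle. At EC50 the changes ran from -0.38 for ASS1 to 0.11 for NRN1, and 0 of 6 had an unadjusted p under 0.05. At 3xEC50 they ran from -0.34 for ASS1 to 0.24 for GTSF1, again with 0 of 6 at an unadjusted p under 0.05. Limma called 0% of 10561 genes in either contrast after adjustment, with 444 and 518 genes at an unadjusted p under 0.05, so in this the 6 did not stand apart from other genes. The RS4:11 vehicle arrays that chose the genes stand in both contrasts, which are therefore not independent of the choice.

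What the arrays do bound is the size of the change. The spread behind each interval also takes in the SEM-K2 arrays, where these genes were under the floor. In GTSF1 the 95% confidence interval was -0.34 to 0.31 at EC50 and -0.08 to 0.56 at 3xEC50. In TNFSF4 it was -0.36 to 0.36 and -0.28 to 0.45. EFEMP1 changed by -0.10 ± 0.13 (-0.40 to 0.20) at EC50 and -0.26 ± 0.13 (-0.56 to 0.04) at 3xEC50. It was the one gene of the 6 with treated arrays below both vehicle arrays at each dose, although its second probe set gave -0.20 with an interval of -1.19 to 0.79 at 3xEC50. NRN1 gave -0.33 to 0.56 and -0.23 to 0.66.

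PRL and ASS1 had the widest intervals. For PRL they were -0.93 to 0.75 at EC50 and -0.88 to 0.81 at 3xEC50, with a spread that also takes in the SEM-K2 values. In a fit of the 6 RS4:11 arrays alone, an alternative chosen after the data were examined, they were -0.44 to 0.26 and -0.38 to 0.31. For ASS1 the intervals from all arrays were -1.33 to 0.56 and -1.28 to 0.61. A fall to less than 0.5 of the vehicle level was therefore not outside what 2 arrays a group allow. With RS4:11 arrays alone the ASS1 intervals were wider, -1.552 to 0.786 at EC50 and -1.505 to 0.833 at 3xEC50. Those of GTSF1, TNFSF4, EFEMP1 and NRN1 were wider too, for example -0.42 to 0.42 for TNFSF4 at EC50. Only the PRL intervals were narrower in that fit. ASS1 was lower at both doses than with vehicle within replicate 1 (-0.53 and -0.55) and within replicate 2 (-0.24 and -0.12). ASS1 replicate 1 read above replicate 2 in each RS4:11 group, so leaving out a vehicle array sets unlike replicates against each other. Without RS4:11 vehicle replicate 1, which leaves vehicle replicate 2 against both replicates with drug, the ASS1 change was 0.16 at EC50 and 0.21 at 3xEC50. Without that array the changes of the 6 genes ran from -0.15 to 0.28 at EC50 and from -0.31 to 0.38 at 3xEC50, and none was called by limma.

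The step from EC50 to 3xEC50 in RS4:11 uses no vehicle array. Here, too, none of the 6 was called, with 0% of all genes called by limma, 85 genes and 0 of the 6 at an unadjusted p under 0.05. GTSF1 gave 0.26 ± 0.14 and EFEMP1 -0.16 ± 0.13, and the other 4 lay between 0.05 and 0.10. Across all 6 RS4:11 arrays the range from lowest to highest value was 0.21 for PRL, 0.36 for GTSF1, TNFSF4 and EFEMP1, 0.54 for NRN1 and 1.33 for ASS1. The median range of the 2548 genes with a mean in RS4:11 at least as high as that of NRN1 was 0.39. By this measure 13.7% of such genes had a smaller range than PRL, while 99% had a smaller range than ASS1.

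**Figure D3:**
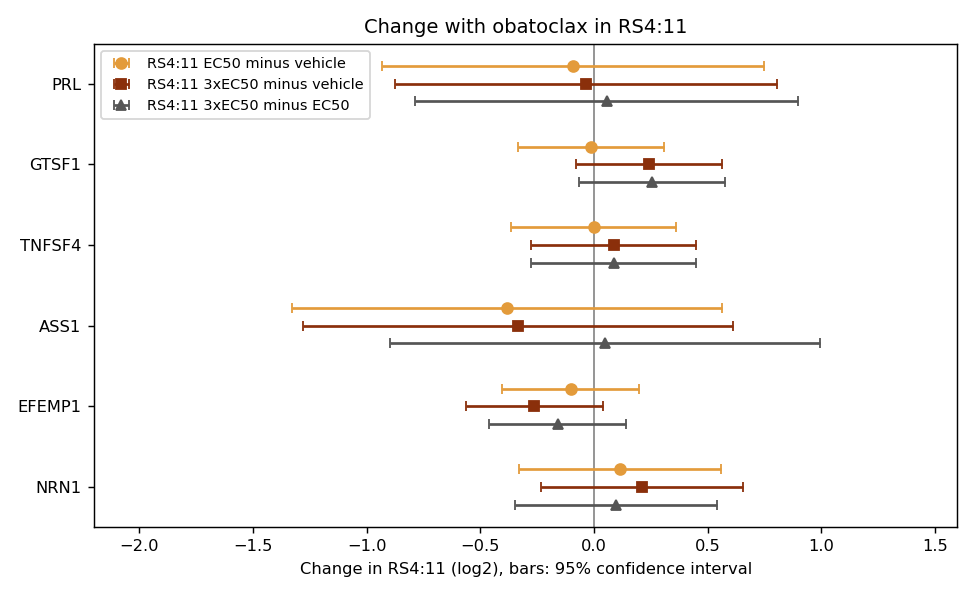
Change in RS4:11 (log2, horizontal axis) for each gene at EC50 against vehicle (circles), 3xEC50 against vehicle (squares) and 3xEC50 against EC50 (triangles), with 95% confidence intervals from limma on all 12 arrays. All 18 intervals include 0, and those of PRL and ASS1 are the widest.

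In SEM-K2 the question was whether the drug brought up a gene that had been low. No array of SEM-K2 with obatoclax exceeded the floor for any of the 6 genes, and the highest value was 3.55, for PRL at 3xEC50 replicate 2. Limma called none of the 6 at either dose, against 0.17% of all genes called at EC50 and 0.824% at 3xEC50. Differences ran from -0.28 to 0.34 at EC50 and from -0.02 to 0.59 at 3xEC50, all between values under the floor. Without SEM-K2 3xEC50 replicate 2 the range at 3xEC50 was -0.33 to 0.51, with PRL at -0.33 in place of 0.31, and none was called. The SEM-K2 vehicle arrays helped to choose the genes, so these contrasts and the next are not independent of the choice. The differences between the lines in their response, RS4:11 minus SEM-K2, were not called for any of the 6 either (0.00947% of genes called at EC50 and 0.0379% at 3xEC50). They ran from -0.63 to 0.28 at EC50 and from -0.93 to 0.23 at 3xEC50, with ASS1 lowest at both doses. The SEM-K2 part of each lies between values under the floor. For ASS1 at 3xEC50 that part was 0.59, beside a change of -0.34 in RS4:11. At 3xEC50 the range was -0.85 to 0.29 without SEM-K2 3xEC50 replicate 2, and without RS4:11 vehicle replicate 1 it was -0.08 to 0.42 at EC50 and -0.38 to 0.40 at 3xEC50, with none called.

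Most genes beside the members in the genome did not share the pattern, but a larger share of them was higher in RS4:11 than of all genes. The nearest 2 measured protein-coding genes on each side gave 24 neighbours, of which 16 passed the filter. Of these, 4 were higher in RS4:11 at both doses and 0 were lower, where 7.26% of all genes were higher and 9.56% lower. The neighbours' shares rest on 16 genes, some of them next to each other, and were not compared with those of all genes by a test. The neighbour most like its member was F13A1, which encodes the A subunit of coagulation factor XIII and lies next to NRN1. It averaged 7.90 in RS4:11 and 2.56 in SEM-K2, at least 14.9-fold higher in RS4:11 (limma adjusted p = 6.37e-06 at EC50 and 6.21e-06 at 3xEC50). On its other side NRN1 borders the mitochondrial phenylalanyl-tRNA synthetase gene FARS2, which averaged 7.80 in RS4:11 and 7.86 in SEM-K2.

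LY86, next beyond F13A1, which encodes the MD-1 partner of a B cell surface receptor, was higher by 0.84 ± 0.13 and 0.90 ± 0.13 (limma adjusted p = 0.00423 and 0.00313). SOX4, a transcription factor gene of B cell development and the nearest measured neighbour of PRL on 1 side, averaged 13.40 in RS4:11 and 11.36 in SEM-K2, and differed by 1.94 ± 0.23 and 2.06 ± 0.23 (limma adjusted p = 0.00137 and 9.87e-04). CDKAL1, next beyond SOX4, averaged 6.59 in RS4:11 and 3.89 in SEM-K2, at least 6.02-fold higher in RS4:11. It was called at 3xEC50 (limma adjusted p = 0.0200) and not at EC50 (limma adjusted p = 0.0918). NCKAP1L, a blood cell actin regulator beside GTSF1, differed by 1.07 ± 0.19 and 0.79 ± 0.19 (limma adjusted p = 0.00794 and 0.0258), and at 3xEC50 it was not called without SEM-K2 3xEC50 replicate 2 (0.68, limma adjusted p = 0.113). TNFSF18 and FASLG, ligand genes of the same superfamily beside TNFSF4, lay at 2.21 and 2.26 in RS4:11 and at 2.19 and 2.25 in SEM-K2, below the floor in both lines. No measured neighbour of ASS1, EFEMP1 or TNFSF4 was called at both doses.

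**Figure D4:**
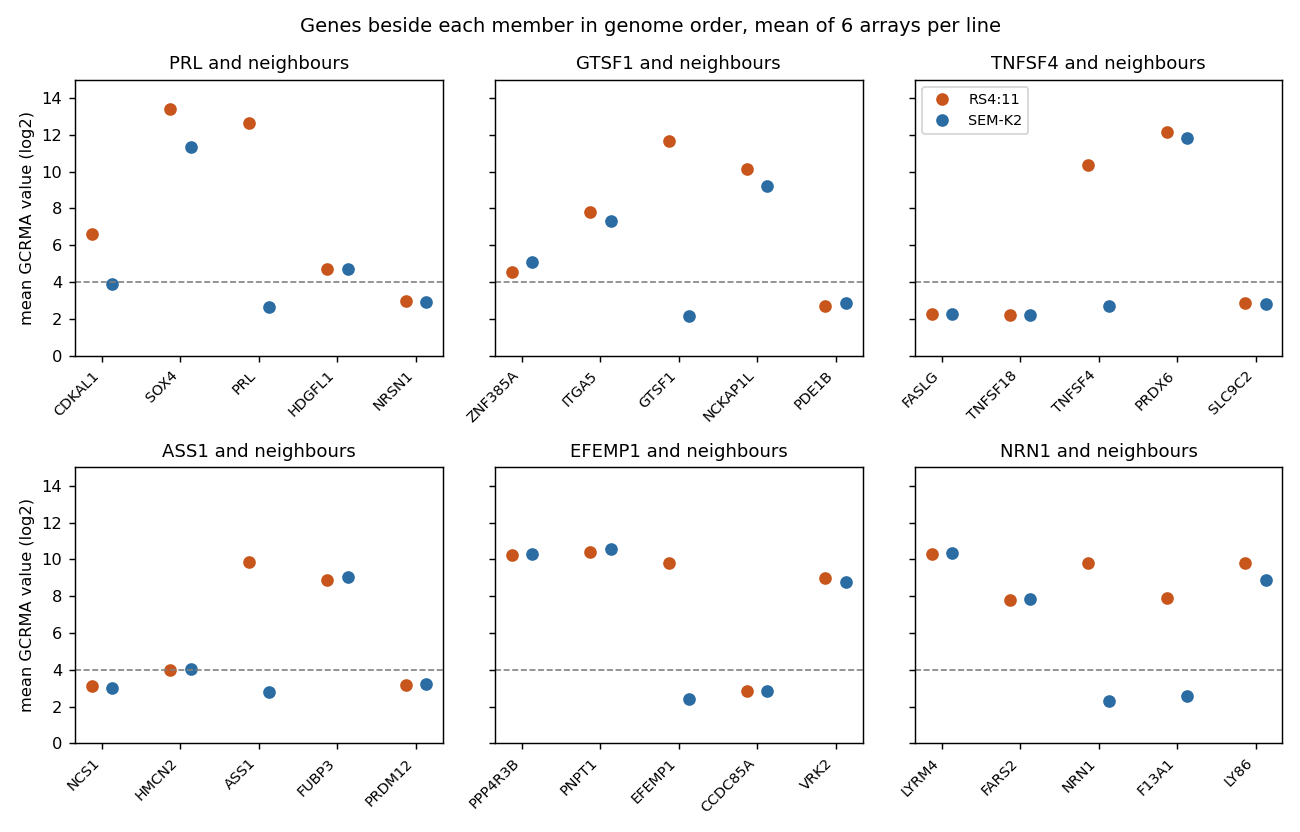
Mean GCRMA value (log2, vertical axis, 6 arrays per line) of each gene and of its nearest 2 measured protein-coding neighbours on each side, in genome order, with RS4:11 in orange and SEM-K2 in blue; the dashed line is the floor at 4. F13A1 beside NRN1 averages 7.90 in RS4:11 and 2.56 in SEM-K2, while most other neighbours show both points close together.

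The genes that work with PRL were examined next. For genes of the lists under the floor in 1 line, folds are from the means over all 6 arrays of each line, with the call from the obatoclax arrays. Of the 34 list genes and neighbours named for a call at both doses, 30 were still called at 3xEC50 without SEM-K2 3xEC50 replicate 2, and the other 4 are named where they appear. The receptor gene PRLR stayed below the floor in both lines, with a highest value of 2.97 in RS4:11 and 2.93 in SEM-K2. So did POU1F1, which drives PRL in the pituitary, at no more than 2.83 in RS4:11 and 2.78 in SEM-K2. Of 13 genes tested in the prolactin and JAK-STAT list, 3 were higher in RS4:11 at each dose, and 1 was lower at EC50 and 3 at 3xEC50, where 9.19% and 9.24% of all genes were higher and 11.8% and 12.8% lower. SOCS2, a feedback inhibitor that STAT5 induces, averaged 9.17 in RS4:11 (8.36 to 10.14) and 3.27 in SEM-K2 (2.82 to 3.88). It was at least 36.0-fold higher in RS4:11 (limma adjusted p = 8.52e-04 at EC50 and 7.00e-04 at 3xEC50). BCL6, a transcriptional repressor of B cells, differed by 2.18 ± 0.13 and 2.34 ± 0.13, and JAK2 by 1.57 ± 0.27 and 1.54 ± 0.27. STAT3 was lower in RS4:11, by -0.85 ± 0.22 and -1.05 ± 0.22. CISH, another STAT5 target, averaged 3.64 in RS4:11 and 4.32 in SEM-K2. The median difference of the list was 0.12 at EC50 and -0.06 at 3xEC50, against -0.05 and -0.06 over all genes.

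Around GTSF1, 25 genes of the piRNA pathway list were on the array and 8 were tested. PIWIL1, PIWIL2, the germ cell helicase gene DDX4 and MAEL were below the floor on all arrays. PIWIL4, the PIWI gene that was above it, averaged 6.25 in RS4:11 and 5.77 in SEM-K2. TDRD3, a Tudor domain gene, was higher in RS4:11 by 1.10 ± 0.22 at EC50 and 1.45 ± 0.22 at 3xEC50, and HENMT1, which methylates piRNA ends, by 0.70 ± 0.13 and 0.54 ± 0.13. The list had 2 genes higher at each dose, with 1 lower at EC50 and 0 at 3xEC50, where 9.19% and 9.24% of all genes were higher and 11.8% and 12.8% lower. Its medians were 0.25 and 0.52, or 0.19 and 0.46 with values under the floor set to 4.

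Around TNFSF4, 26 genes of the TNF superfamily and costimulation list were on the array and 10 were tested, of which 1 was higher in RS4:11 at EC50 and 2 at 3xEC50, with 3 and 4 lower. Over all genes 9.19% and 9.24% were higher and 11.8% and 12.8% lower. The list's share of higher genes was 10% at EC50, near that of all genes, and 20% at 3xEC50, above it. Its share of lower genes was above that of all genes at both doses. These shares rest on 10 genes and were not tested. The list's medians were -0.23 and -0.38, or -0.23 and -0.17 with values under the floor set to 4, against -0.05 and -0.06 over all genes. TNFRSF4, the receptor of OX40 ligand, did not exceed 2.16 in RS4:11 or 2.69 in SEM-K2. CD70, another costimulatory ligand gene, was higher in RS4:11 by 2.62 ± 0.35 and 1.95 ± 0.35. TRAF5, an adaptor that binds OX40 and related receptors, averaged 2.94 in RS4:11 and 6.72 in SEM-K2, at least 6.57-fold lower in RS4:11 (limma adjusted p = 5.22e-06 and 4.64e-06). CD40 was lower in RS4:11 by -1.02 ± 0.18 and -2.15 ± 0.18. It also rose in SEM-K2 at 3xEC50 by 2.21 ± 0.25 (limma adjusted p = 0.00581), the one list gene called in an obatoclax contrast. Without SEM-K2 3xEC50 replicate 2 that change was 2.39 (adjusted p = 0.0329, limma), and without SEM-K2 vehicle replicate 2 it was 2.04 and no longer called (adjusted p = 0.0785, limma). TNFRSF14 was lower in RS4:11, with means of 3.52 in RS4:11 and 4.23 in SEM-K2 that lie close to the floor, and at 3xEC50 it was not called without SEM-K2 3xEC50 replicate 2 (limma adjusted p = 0.0668).

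Around ASS1, 18 of 27 measured genes of arginine metabolism were tested. ASL, the enzyme that acts directly after ASS1, was above the floor in both lines, at 8.35 in RS4:11 and 7.89 in SEM-K2, as was the arginine importer gene SLC7A1, at 10.87 in RS4:11 and 10.77 in SEM-K2. OTC was below the floor in both. SLC7A2, another importer of arginine, had the opposite pattern to ASS1, with a mean of 2.06 in RS4:11 and 7.73 in SEM-K2, at least 13.3-fold lower in RS4:11 (limma adjusted p = 1.17e-04 and 1.02e-04). OAT, the mitochondrial ornithine aminotransferase gene, averaged 2.91 in RS4:11 and 6.76 in SEM-K2, at least 6.76-fold lower in RS4:11 (limma adjusted p = 2.38e-05 and 2.14e-05). GATM, of creatine synthesis, differed by -1.11 ± 0.18 and -0.88 ± 0.18. SLC25A15, the mitochondrial ornithine carrier, was higher in RS4:11 by 1.10 ± 0.26 and 1.06 ± 0.26, and at 3xEC50 was not called without SEM-K2 3xEC50 replicate 2 (1.15, limma adjusted p = 0.0728). In all, 3 genes were higher at EC50 and 1 at 3xEC50, and 3 and 4 were lower, or 16.7% and 5.56% higher, against 9.19% and 9.24% of all genes higher and 11.8% and 12.8% lower. The list's medians were -0.01 and -0.03.

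Around EFEMP1, 23 genes of fibulins and elastic fibres were on the array and 8 were tested. No other fibulin family gene showed the pattern of EFEMP1: FBLN2, FBLN5 and FBLN7 were below the floor on all arrays, and FBLN1 averaged 5.01 in RS4:11 and 4.87 in SEM-K2. LTBP2 was higher in RS4:11 by 2.41 ± 0.34 and 1.74 ± 0.34. FBN2, a fibrillin gene, averaged 3.19 in RS4:11 and 8.53 in SEM-K2, at least 23.1-fold lower in RS4:11 (limma adjusted p = 8.20e-06 and 7.88e-06). EMILIN2 averaged 1.82 in RS4:11 and 6.68 in SEM-K2, at least 6.39-fold lower in RS4:11 (limma adjusted p = 1.05e-06 and 1.09e-06). In all, 1 gene was higher at each dose and 3 and 2 were lower, where 9.19% and 9.24% of all genes were higher and 11.8% and 12.8% lower, with medians of 0.01 and -0.49, or 0.08 and -0.23 with values under the floor set to 4. Around NRN1, 3 of 17 measured genes of the neurotrophin and neuronal activity list were tested. At each dose 0 were higher in RS4:11 and 2 were lower, where 9.19% and 9.24% of all genes were higher and 11.8% and 12.8% lower. The medians of these 3 genes were -0.73 and -0.78. HOMER1, a postsynaptic scaffold gene, differed by -1.06 ± 0.17 and -1.18 ± 0.17, and the insulin receptor gene INSR by -0.73 ± 0.16 and -0.78 ± 0.16.

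Markers of other cell types in which these genes are known were mostly below the floor in both lines. Of 8 measured pituitary cell markers 0 had a mean above the floor in RS4:11 and 1 in SEM-K2, which was POMC, at 2.86 in RS4:11 and 4.75 in SEM-K2, at least 1.68-fold lower in RS4:11 (limma adjusted p = 0.00405 at EC50 and 0.00866 at 3xEC50). Of 8 germ cell markers 0 were above it in either line. Of 13 fibroblast and endothelial markers 2 were above it in RS4:11 and 3 in SEM-K2. COL1A2, COL3A1, DCN and LUM were under it on every array, COL1A1 averaged 6.81 in RS4:11 and 6.66 in SEM-K2, and PECAM1, at 3.51 in RS4:11 and 6.74 in SEM-K2, was at least 6.69-fold lower in RS4:11 (limma adjusted p = 4.47e-04 and 2.98e-04). Of 12 myeloid markers 2 were above the floor in each line, with MPO and LYZ under it and CEBPA lower in RS4:11 by -3.73 ± 0.38 and -4.02 ± 0.38. Of 12 markers of T and NK cells 3 were above it in each line, with CD3D under it and ZAP70 higher in RS4:11 by 0.91 ± 0.24 and 0.87 ± 0.24, though not called at 3xEC50 without SEM-K2 3xEC50 replicate 2 (0.67, limma adjusted p = 0.178).

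B cell precursor markers were higher in the same line as the 6 genes. Of 13 tested, 9 were higher in RS4:11 at each dose, and 0 and 1 were lower, where 9.19% and 9.24% of all genes were higher and 11.8% and 12.8% lower. The median difference was 2.83 at EC50 and 2.64 at 3xEC50, also with values under the floor set to 4, against -0.05 and -0.06 over all genes. CD24 differed by 6.93 ± 0.22 and 7.35 ± 0.22. The recombinase gene RAG1 averaged 9.98 in RS4:11 and 3.12 in SEM-K2, at least 63.2-fold higher in RS4:11 (limma adjusted p = 7.18e-06 and 5.53e-06). DNTT, which adds bases at V(D)J joints, averaged 9.05 in RS4:11 and 3.62 in SEM-K2, at least 33.2-fold higher in RS4:11 (limma adjusted p = 0.00120 and 0.00180). Their summed level ran from 15.72 to 16.25 (log2) in RS4:11 and from 14.40 to 14.90 in SEM-K2. PAX5 and EBF1, which define the B lineage, were high in both lines, at 12.52 and 12.74 in RS4:11 and 12.76 and 12.47 in SEM-K2. The part of the B cell stage in the level of the 6 genes was not tested. All 10 measured genes of the list of KMT2A fusion targets were above the floor in both lines. Of these, 2 were higher in RS4:11 at EC50 and 1 at 3xEC50, and 3 were lower at each dose. Over all genes 9.19% and 9.24% were higher and 11.8% and 12.8% lower. The list's medians were -0.17 and -0.25, against -0.05 and -0.06 over all genes. PBX3 was higher in RS4:11 by 1.92 ± 0.18 and 1.19 ± 0.18. FLT3 (-2.68 ± 0.17 and -2.74 ± 0.17), LMO2 (-1.44 ± 0.25 and -1.51 ± 0.25) and RUNX2 (-1.31 ± 0.15 and -1.20 ± 0.15) were lower there.

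Across all 12 arrays the genes whose profile most resembled the mean of the 6 were DNAJC15 (Pearson's r = 0.9991), ATP9A (0.9990), LRRC34 (0.9989), PDPN (0.9987) and ADGRG7 (0.9981). The 12 points fall into 2 clusters, the lines, and 29 genes, members included, reached the lowest r of a member. DNAJC15, a mitochondrial cochaperone gene, averaged 8.96 in RS4:11 and 2.11 in SEM-K2. PDPN, which encodes the membrane glycoprotein podoplanin, averaged 8.72 in RS4:11 and 2.81 in SEM-K2.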

How the data were processed

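Gene expression was measured on 12 Affymetrix U133 Plus 2 arrays, 2 in each of 6 groups. The deposited values were made with GCRMA, per the submitters' processing notes. They were read as log2 values, a scale that the sources do not state, because the deposited values ran from 0.64 to 16.22 with array medians of 3.13 to 3.16. Of 54675 probe sets 41097 had 1 gene symbol, 1801 had several and were left unnamed, and 11777 were not listed. Symbols were updated through 41043 Entrez identifiers matched to RefSeq (GRCh38.p14). The 62 control probe sets were left out. Each gene was represented by its brightest probe set on average over a fit's arrays. Genes above 4 on at least 2 arrays of a fit were tested with lmFit and eBayes (limma 3.58.1, R 4.3.3). Line differences used the 8 obatoclax arrays and drug contrasts all 12. P-values were adjusted by Benjamini-Hochberg over all tested genes, and calls were made below 0.05. The ± sign marks the SE. The test was tried on simulated data with known changes. Those data had independent noise, no shared replicate effect and no gene under the floor in 1 line alone, so the trial does not bear on the 6 genes. Precision is limited by the number of arrays. The 6 genes and the gene lists were chosen with earlier results of these data known. Named were the members, the 3 genes ranked next and the 5 genes most like them. Also named were up to 3 list genes called in each direction at both doses and neighbours called at both doses. List genes called in an obatoclax contrast were named too. Other genes of the lists and neighbourhoods, named for their role or level, were picked after their values were seen. The ATGNATA motif was likewise picked after the data were examined. Alternatives were other probe set rules, filters, a floor at 4, trend and robust moderation, the replicate number as a block, other arrays in the fit and each array left out.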

Additional observations from a re-analysis of the deposited data

How the results depend on the processing

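All 6 members were called higher in RS4:11 at both doses, and 0 in every obatoclax contrast and response difference, under each alternative that could test them, with 1 exception by construction: without _x_at and _s_at probe sets 3 members were left and 3 were called at each dose. Leaving out any 1 array gave 6 and 6 at EC50 and 3xEC50, and 0 elsewhere. With values under 4 set to 4 the median vehicle excess of 7.56 became 6.22, and it ran from 7.49 to 7.91 without 1 vehicle array. Among the values of single members in RS4:11 recomputed under every alternative, sign changed for uncalled obatoclax changes and for no line difference. In SEM-K2 single members were recomputed without the array of low RNA quality alone, where PRL at 3xEC50 turned to -0.33 in place of 0.31. With the mean of its probe sets EFEMP1 gave 0.0070 from EC50 to 3xEC50. By the same mean its line difference was 3.87 at EC50 and 3.88 at 3xEC50, against 7.46 and 7.24 with its brightest probe set. Without 1 array, changes at EC50 ran from -0.93 to 0.16 for ASS1, -0.13 to 0.10 for GTSF1, -0.054 to 0.28 for NRN1 and -0.14 to 0.14 for TNFSF4. At 3xEC50 against vehicle they ran from -0.88 to 0.21 for ASS1, -0.14 to 0.068 for PRL and -0.055 to 0.23 for TNFSF4. Between doses they ran from -0.36 to 0.45 for ASS1, -0.065 to 0.26 for NRN1, -0.048 to 0.16 for PRL and -0.047 to 0.22 for TNFSF4. Leaving out an array of a contrast sets both replicates of 1 group against 1 replicate of the other. The cause of the sign changes was not tested.

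The share of all genes called was less stable. For the line difference at EC50 and 3xEC50 (21% and 22% in either direction) it was 8.43% and 8.91% with no filter. It was 12.1%, 12.6% and 13.8% at EC50 without SEM-K2 EC50 replicate 2, SEM-K2 EC50 replicate 1 and RS4:11 EC50 replicate 2, and 13.3% and 13.1% at 3xEC50 without RS4:11 3xEC50 replicate 1 and replicate 2. In SEM-K2 against vehicle it was 0.17% at EC50 and 0.824% at 3xEC50. With every array kept, alternatives gave from 0.0405% (no filter) to 0.436% (replicate block) at EC50. At 3xEC50 they gave from 0.298% (every probe set on its own) to 2.08% (replicate block). The share in SEM-K2 also moved when 1 array was left out. In RS4:11 it did not exceed 0.0161% under any alternative. The labels do not say that replicate numbers mark a shared day, but replicate 1 deviated from its group mean in the same sense in all 15 pairs of groups (correlations of 0.191 to 0.601). The replicate block left every call on the 6 genes as it was and gave 30% and 32.6% of genes called between the lines, and 0.436% and 2.08% in SEM-K2 at EC50 and 3xEC50.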
